A study of Saccharomyces cerevisiae with 10 samples.

Results

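The genes described here encode the COPII and COPI vesicle coats of Saccharomyces cerevisiae, the cargo receptors that ride in these vesicles, and the SNAREs, Rab protein and tether that let vesicles fuse between the endoplasmic reticulum (ER) and the Golgi. They were chosen by gene symbol, and all 36 have 1 probe set each among the 5449 measured yeast genes. Per the labels, 3 arrays come from yeast carrying prs426GPD-αENaC-HA, a plasmid for αENaC, the pore-forming α subunit of the epithelial sodium channel, with an HA tag, and 7 from yeast containing a vector, pRSGPD426. A GPD promoter is constitutive in yeast, and the αENaC transcript itself was not analysed here. All cultures grew at 26 °C in selective medium to mid log phase. The strain background is not given in the labels, and nothing in them ties arrays to separate clones. The running numbers in the sample titles form 3 sets. Set 1 holds αENaC 1 and 2 with controls 1 and 2, set 2 holds αENaC 3 with control 3, and set 3 holds controls 4 to 7.

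COPII coats form on the ER when Sec12 loads Sar1 with GTP. Sec23 and Sec24 then bind the membrane and its cargo, and Sec13 and Sec31 build the outer cage. COPI coats form on the Golgi under the GTPase Arf1 and carry escaped ER proteins and cargo receptors back. In yeast the α subunit of the sodium channel is a membrane protein that is made at the ER and is in large part degraded there, and the comparison asks which transport genes differ when it is present.

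Levels are given as log2 of the signal in array means plus a pseudocount of 0.03, after quantile normalization. Levels of different genes are not compared with each other, since probe sets differ in brightness. A difference is the αENaC mean minus the control mean on this scale, with its SE, and it understates the change of dim genes. All 36 genes lay above the background level of -2.03 on average, which is the 95th percentile of the probe sets named outside the yeast annotation. None of the 36 probe sets carries an identifier that marks shared probes. A higher level in every cell and a higher level in some of the cells cannot be told apart in RNA from whole cultures. Across probe sets, arrays of the same group and set correlated at 0.980 to 0.999, and arrays of the same group in different sets at 0.925 to 0.977. An αENaC and a control array of one set correlated at 0.974 to 0.981. The labels name no separate cultures, so a p-value here measures only array-to-array spread, which may be technical.

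No coat, receptor or SNARE gene passed the test between αENaC and control yeast. With limma over 5498 probe sets, 0 of the 36 had an adjusted p under 0.05, against 1.73% of all probe sets (1.36% higher and 0.364% lower). Blocking on the replicate number leaves 2 residual degrees of freedom, and limma then called 0 of all probe sets, with 1127 at an unadjusted p under 0.05. At an unadjusted p under 0.05 there were 7 of the 36, against 18.2% of all probe sets. The lowest adjusted p was 0.0909, for USO1. Of the 36 differences, 22 were positive. Their median was 0.02, beside 0.02 for all probe sets, and they ran from -0.23 for USO1 to 0.46 for SEC12. The median size of a difference was 0.085, beside 0.144 over all probe sets. The members also varied less among the controls, with a median SD of 0.11 against 0.19. For 64 other genes of transport between ER and Golgi, the median size was 0.118 and the median SD 0.14.

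The 95% intervals bound what the arrays could have missed on the quantile-normalized scale only. For 32 of the 36 genes the interval lay wholly between -0.5 and 0.5 on the log2 scale, as it did for 59.3% of all probe sets. The exceptions were SEC12, SFB2, EMP46 and SEC26, whose intervals reached 0.77, 0.80, 0.78 and 0.52. For all 36 the interval of this fit lay between -1 and 1. A difference of 1 on the log2 scale in either direction thus lay outside it. Without quantile normalization SEC12 was at 0.66 ± 0.24 and SFB2 at 0.58 ± 0.24 (SE). With each array centred on its median, 26 of the 36 differences were negative and 10 positive. SAR1 was then at -0.42 ± 0.23 and ARF1 at -0.38 ± 0.21 (SE). Intervals were not computed on those 2 scales, so larger differences there are not bounded. The intervals given here take the 10 arrays as independent. Near-identical arrays were αENaC 1 and 2, controls 1 and 2, and controls 5, 6 and 7. With these averaged to leave 6 arrays, limma had 0 of the 36 genes at an unadjusted p under 0.05.

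**Figure D1:**
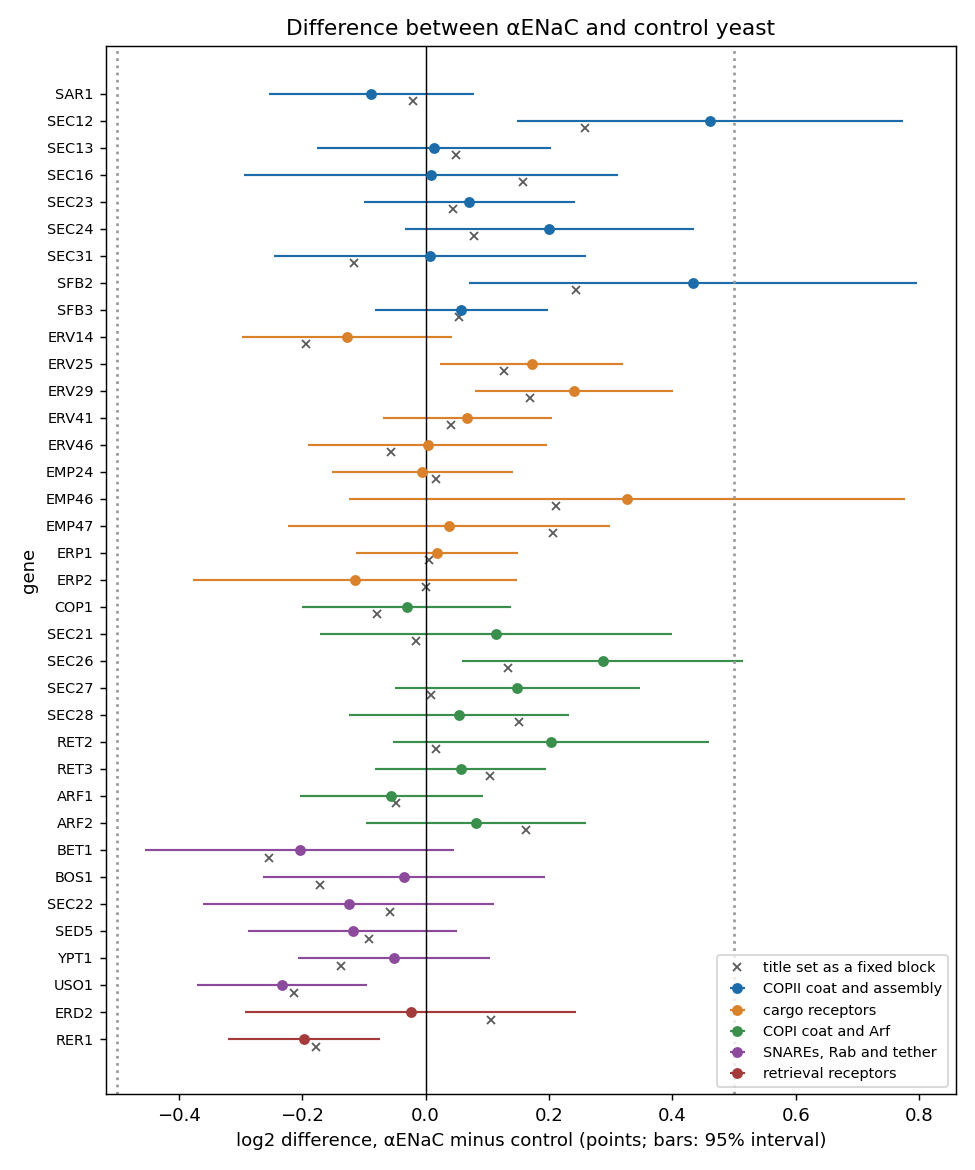
Log2 difference between αENaC and control yeast for each of the 36 genes (points, with 95% intervals as bars, n = 3 and 7 arrays, coloured by role group), with crosses for the difference when the title number set is a fixed block. Dotted lines mark -0.5 and 0.5, and 32 of the 36 bars lie wholly between them.

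The direction of several role groups depended on the scaling. Of the 9 COPII genes 8 were positive, of the 10 cargo receptors 7, of the 9 COPI and Arf genes 7, of the 6 SNARE and tether genes 0, and of the 2 retrieval receptors 0. With each array centred on its median these counts were 4, 3, 3, 0 and 0. With no quantile normalization they were 8, 6, 7, 3 and 1, and on the deposited z scores 8, 10, 8, 3 and 1. With the title set as a block they were 7, 8, 6, 0 and 1, and the median of the COPI and Arf genes went from 0.08 to 0.02. The median of all probe sets was 0.02 with quantile normalization, 0.16 without it and -0.06 with median centring.

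Among the COPII genes, SEC12 and SFB2 had the largest differences. SEC12 encodes the ER membrane protein that exchanges nucleotide on Sar1 and so starts the coat. Its level was 0.14, 0.09 and -0.19 on αENaC arrays 1 to 3. On the controls it ran from -0.64 to -0.10, with a median of -0.53. αENaC 3 therefore lay below the highest controls, which were the 2 of set 1, but each αENaC array lay above the controls of its own set. The difference was 0.46 ± 0.14 (SE, n = 3 and 7; limma adjusted p = 0.128). It was 0.24 within set 1 and 0.30 within set 2. With the title set as a fixed block SEC12 was called higher, at 0.26 ± 0.05 (limma adjusted p = 0.0123; 24 alternatives gave 0.00451 to 0.998). That fit called 3 of the 36 genes, against 14.2% of all probe sets. It called 1 member higher (7.38% of all probe sets) and 2 lower (6.86%). Spread in that fit was measured within sets, where near-identical arrays counted as separate ones.

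SFB2 encodes a paralog of the cargo-binding subunit Sec24. Its level was 0.96, 0.97 and 0.34 on the αENaC arrays and 0.12 to 0.70 on the controls, with a median of 0.26. αENaC 1 and 2 lay above every control, and αENaC 3 lay beside control 3 and below both controls of set 1. The difference was 0.43 ± 0.16 (n = 3 and 7; limma adjusted p = 0.199). It was 0.36 within set 1 and 0.01 within set 2. Without αENaC 3 the gene was called, at 0.64 (limma adjusted p = 0.0470; 24 alternatives gave 0.00591 to 0.998). That setting called 237 of 5498 probe sets and left αENaC arrays of set 1 only. The set 1 controls of SFB2 lay above its set 3 controls by 0.42, so group and set cannot be told apart there. SEC24 itself was at 0.20 ± 0.11 and the other paralog, SFB3, at 0.06 ± 0.06 (n = 3 and 7; limma adjusted p = 0.343 and 0.664).

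The rest of the COPII machinery lay near 0 with quantile normalization. SAR1, the GTPase that recruits the coat, stood at 2.69, 2.61 and 2.83 in αENaC yeast. Its controls ran from 2.66 to 2.86, with a median of 2.84. The groups overlapped, and the difference of -0.09 ± 0.07 (n = 3 and 7; limma adjusted p = 0.565) was the lowest of this group. For SAR1 it was -0.20 ± 0.14 without quantile normalization and -0.42 ± 0.23 with median centring. The inner coat GTPase-activating subunit SEC23 was at 0.07 ± 0.08. The cage genes SEC13 and SEC31 were both at 0.01, with SE of 0.09 and 0.11. SEC16, the scaffold of ER exit sites, was also at 0.01 ± 0.14 over all arrays. Within set 2, however, αENaC 3 stood at -0.19 against -0.66 in control 3, a gap of 0.46, while the gap within set 1 was 0.01.

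**Figure D2:**
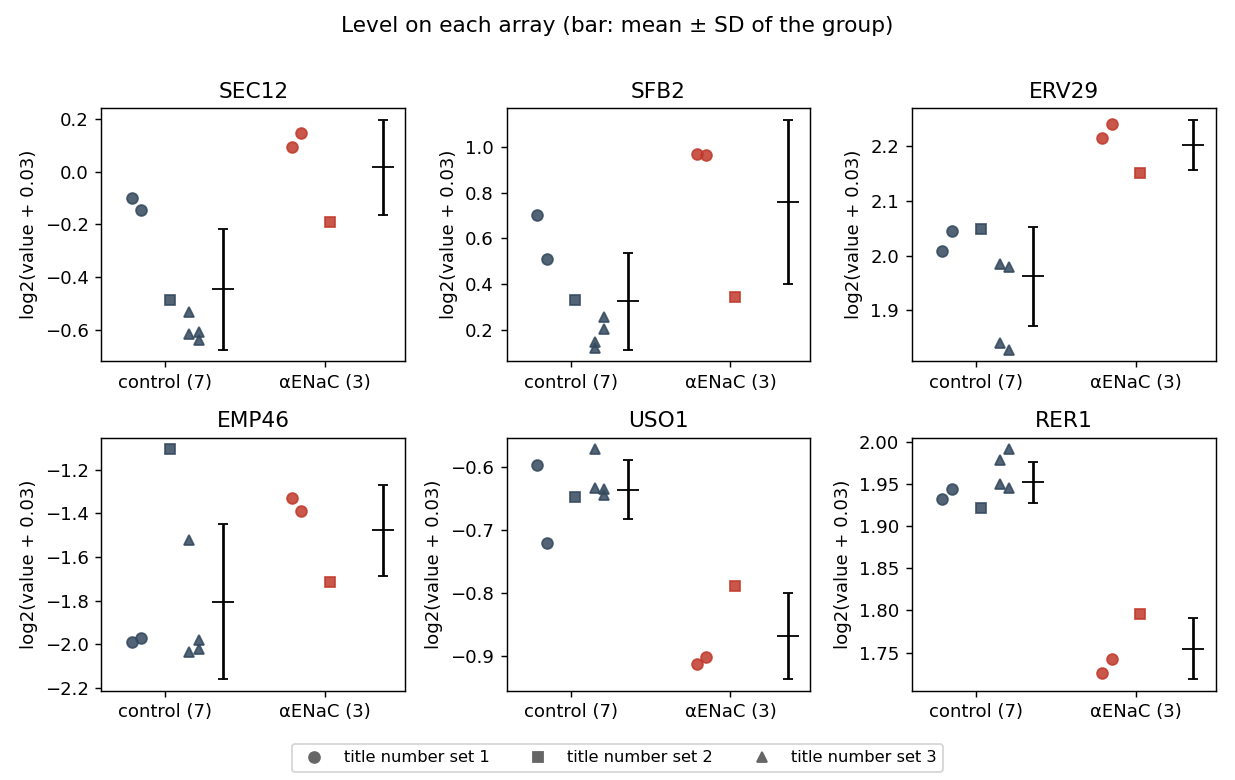
Level, as log2(value + 0.03), on each of the 7 control and 3 αENaC arrays for SEC12, SFB2, ERV29, EMP46, USO1 and RER1, with marker shape for the title number set and bars for the mean ± SD of each group. ERV29 on αENaC arrays lies above all controls, USO1 and RER1 lie below all controls, and EMP46 is highest in control 3.

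Cargo receptors span the vesicle membrane and link cargo to the coat. ERV29 encodes the receptor for soluble glycoproteins such as the α-factor precursor. Its level was 2.24, 2.22 and 2.15 in αENaC yeast. The controls ran from 1.83 to 2.05, with a median of 1.98. All 3 αENaC arrays lay above all 7 controls. Groups that do not overlap were found for 3 of the 36 genes (ERV29, USO1 and RER1), against 8.58% of all probe sets. ERV29 alone was above (4.97% of all probe sets), and USO1 and RER1 were below (3.62%). The difference of ERV29 was 0.24 ± 0.07 (n = 3 and 7; limma adjusted p = 0.122), and 0.20 in set 1 alone and 0.10 in set 2 alone. With median centring it was 0.04.

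ERV25, EMP24, ERP1 and ERP2 encode the p24 proteins, which act together and help to export proteins with a lipid anchor. ERV25 stood at 2.33, 2.35 and 2.43 in αENaC yeast and at 2.11 to 2.34 in the controls, with a median of 2.18. αENaC 1 lay just below the highest control, which was control 3, and the other αENaC arrays lay above all controls. The difference was 0.17 ± 0.07 (n = 3 and 7; limma adjusted p = 0.211). Its partners were closer to 0, with EMP24 at -0.01 ± 0.07, ERP1 at 0.02 ± 0.06 and ERP2 at -0.11 ± 0.12. For ERP2 the control sets lay further apart than the groups, with a mean of 1.75 in the set 1 controls and 2.08 in the set 3 controls.

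ERV14 encodes a receptor for transmembrane proteins. Its level was 2.11, 1.999 and 1.997 in αENaC yeast and 2.02 to 2.32 in the controls, with a median of 2.16. The groups overlapped, and each αENaC array lay below the controls of its own set. The difference of -0.13 ± 0.08 (n = 3 and 7; limma adjusted p = 0.405) was the lowest of the cargo receptors, with -0.23 within set 1 and -0.13 within set 2. ERV41 and ERV46 form a complex that returns ER proteins that lack the usual retrieval signal, and they were at 0.07 ± 0.06 and 0.00 ± 0.09.

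EMP46 and EMP47 are paralogs of the lectin-like receptor family. EMP46 lay above background on 9 of the 10 arrays. Its controls ran from -2.04 to -1.11, with a median of -1.98, and the groups overlapped. It stood at -1.39 and -1.33 on αENaC 1 and 2, against -1.97 and -1.99 on controls 1 and 2. In set 2 the order was turned, with -1.71 on αENaC 3 against -1.11 on control 3. Over all arrays the difference was 0.33 ± 0.20 (n = 3 and 7; limma adjusted p = 0.415). EMP47 was at 0.04 ± 0.12 over all arrays (limma adjusted p = 0.898). Within sets 1 and 2 it was higher in αENaC yeast, by 0.23 and 0.15.

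The COPI coat is a single complex of 7 subunits, and none of its genes passed the test between αENaC and control yeast. SEC26, which encodes the β subunit, stood at 1.85, 1.86 and 1.78 in αENaC yeast. The controls ran from 1.34 to 1.83, with a median of 1.48. αENaC 1 and 2 lay above all controls, and αENaC 3 lay below control 3. The difference of 0.29 ± 0.10 (n = 3 and 7; limma adjusted p = 0.182) was the largest of the COPI and Arf genes, with 0.22 within set 1 and -0.05 within set 2.

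RET2, the δ subunit gene, stood at 1.98, 2.02 and 1.79 in αENaC yeast and at 1.53 to 1.96 in the controls, with a median of 1.68. The groups overlapped. The difference was 0.20 ± 0.12 (n = 3 and 7; limma adjusted p = 0.378), but 0.05 within set 1, -0.06 within set 2 and 0.02 with the title set as a block. The β′ subunit gene SEC27 was at 0.15 ± 0.09, the γ subunit gene SEC21 at 0.11 ± 0.13 and the α subunit gene COP1 at -0.03 ± 0.08. SEC28 and RET3, which encode the small ε and ζ subunits, were at 0.05 ± 0.08 and 0.06 ± 0.06. They were higher in αENaC yeast within both sets, by 0.12 and 0.21 for SEC28 and by 0.09 and 0.13 for RET3.

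ARF1 and ARF2 encode near-identical GTPases that recruit the COPI coat. ARF1, the more strongly expressed of the pair in yeast, stood at 2.70, 2.69 and 2.89 in αENaC yeast and at 2.74 to 2.86 in the controls, with a median of 2.83. αENaC 1 and 2 lay below all controls and αENaC 3 above them. The difference was -0.06 ± 0.07 (n = 3 and 7; limma adjusted p = 0.698). ARF2 was at 0.08 ± 0.08, with 0.18 within set 1 and 0.12 within set 2. On the deposited z scores ARF2 was the only one of the 36 genes called (limma adjusted p = 0.0411; 24 alternatives gave 0.00833 to 0.998), beside 93 of 5498 probe sets. Whether the probe sets separate such close paralogs was not tested.

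**Figure D3:**
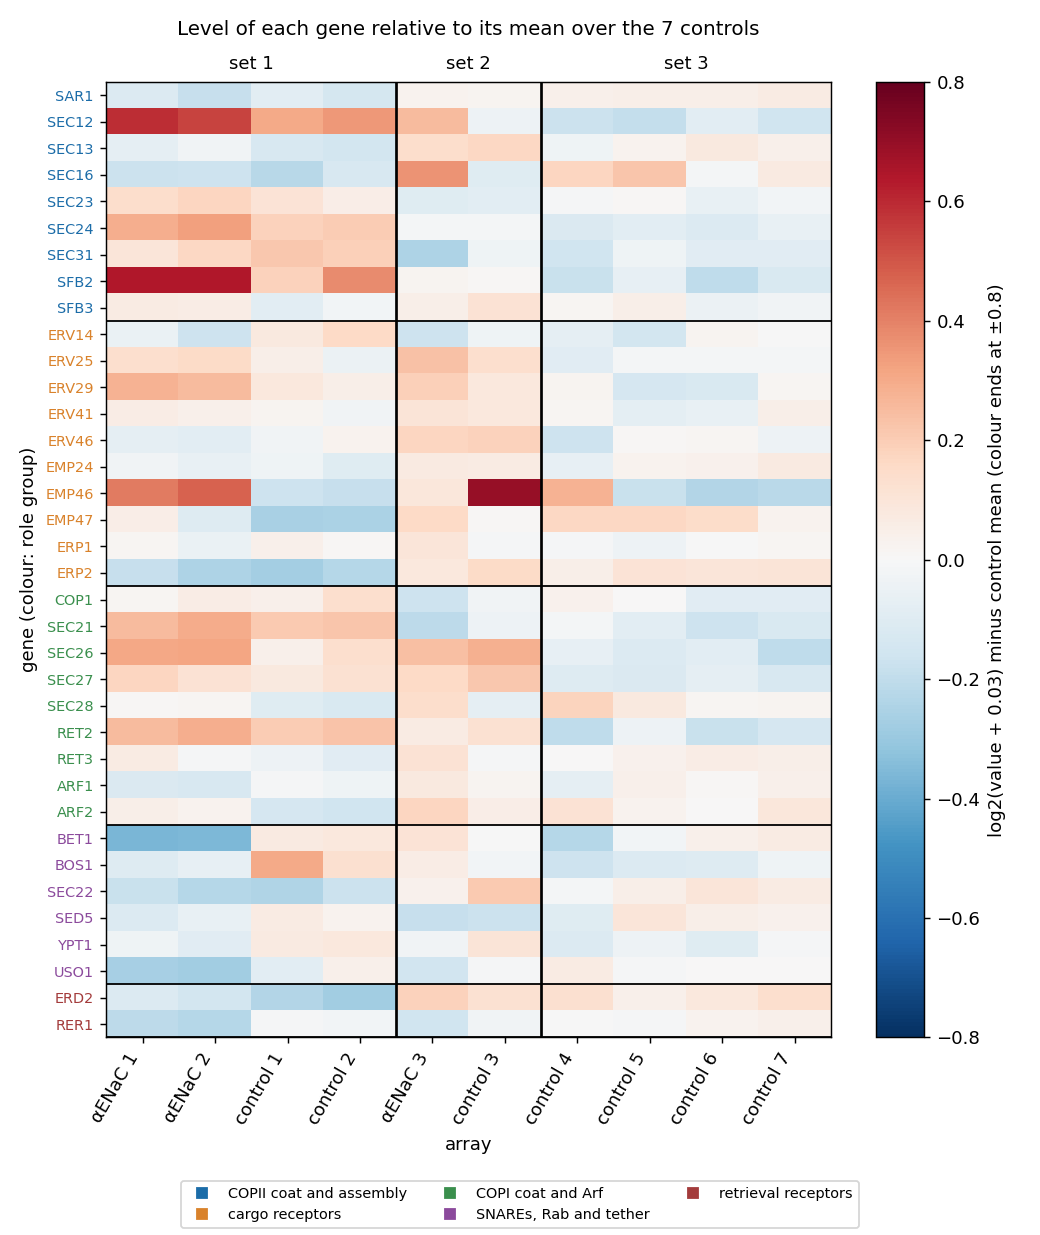
Level of each of the 36 genes on each array minus that gene's mean over the 7 controls, as log2(value + 0.03), with arrays ordered by title number set (vertical lines) and genes by role group (horizontal lines). The controls of set 1 resemble the αENaC arrays of set 1 for SEC12, SEC24, SEC21, RET2 and ERD2 more than they resemble the controls of set 3.

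Vesicles from the ER are caught by the long tether Uso1 under the Rab GTPase Ypt1 and fuse through the SNAREs Bet1, Bos1, Sec22 and Sed5. USO1 stood at -0.90, -0.91 and -0.79 in αENaC yeast. In the controls it ran from -0.72 to -0.57, with a median of -0.64. All 3 αENaC arrays lay below all 7 controls. The difference was -0.23 ± 0.06 (n = 3 and 7; limma adjusted p = 0.0909), and -0.25 in set 1 alone and -0.14 in set 2 alone. With the title set as a block it was called lower, at -0.21 ± 0.05 (limma adjusted p = 0.0320; 24 alternatives gave 0.00874 to 0.998). Without set 3 that call was lost (limma adjusted p = 0.0871), and without quantile normalization the difference over all arrays was -0.02.

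BET1 and BOS1 had opposite signs in sets 1 and 2, though no gene of this group passed the test of that difference. BET1 stood at -0.99, -0.99 and -0.52 in αENaC yeast and at -0.85 to -0.55 in the controls, with a median of -0.59. αENaC 1 and 2 lay below all controls and αENaC 3 lay above them. The difference was -0.20 ± 0.11 (n = 3 and 7; limma adjusted p = 0.367), and -0.44 in set 1 alone and 0.12 in set 2 alone. BOS1 was at -0.30 within set 1 and 0.08 within set 2. It stood at -0.11, -0.07 and 0.05 in αENaC yeast and at -0.17 to 0.29 in the controls, with a median of -0.04, so the groups overlapped. Over all arrays it was at -0.04 ± 0.10 (n = 3 and 7; limma adjusted p = 0.893). SEC22 was at -0.12 ± 0.11, SED5 at -0.12 ± 0.08 and YPT1 at -0.05 ± 0.07. In both sets YPT1 lay below 0, at -0.14 and -0.13.

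The retrieval receptors bring ER proteins back from the Golgi in COPI vesicles. RER1 encodes the receptor that retrieves membrane proteins, Sec12 among them. Its level was 1.74, 1.73 and 1.80 in αENaC yeast. The controls ran from 1.92 to 1.99, with a median of 1.95 and an SD of 0.02. All 3 αENaC arrays lay below all 7 controls. The difference was -0.20 ± 0.06 (n = 3 and 7; limma adjusted p = 0.103), and -0.20 in set 1 alone and -0.13 in set 2 alone. With the title set as a block it was called lower, at -0.18 ± 0.04 (limma adjusted p = 0.0287; 24 alternatives gave 0.00527 to 0.998), and without set 3 that call was lost (limma adjusted p = 0.0802). On the deposited z scores the difference was -0.02 array SD (limma adjusted p = 0.904).

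ERD2 encodes the receptor for soluble ER proteins with the HDEL signal. It stood at 1.46, 1.43 and 1.75 in αENaC yeast and at 1.29 to 1.71 in the controls, with a median of 1.65. αENaC 3 lay above all controls, and αENaC 1 and 2 lay between the controls of set 1 and the others. The difference was -0.02 ± 0.12 (n = 3 and 7; limma adjusted p = 0.940). Within sets 1 and 2 it was 0.13 and 0.06.

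Within set 1 both αENaC arrays lay above both controls for 18 of the 36 genes and below both for 10. Among all 5498 probe sets 82% did not overlap there, with 2053 above and 2454 below. The effect of αENaC was compared between sets 1 and 2 with an interaction term. Of the 36 genes, 20 had the same sign in both sets, which is 55.6%, beside 51.8% of all probe sets. The difference between the sets passed for 1 of the 36, EMP46, against 17.4% of all probe sets. The EMP46 effects of 0.62 in set 1 and -0.61 in set 2 differed by 1.23 (limma adjusted p = 0.0290; 16 alternatives gave 6.56e-05 to 0.0911). The call was lost without αENaC 1 or 2 or control 1 or 2. BET1 (-0.55), SEC16 (-0.45) and BOS1 (-0.38) had the next lowest adjusted p, at 0.0541, 0.0668 and 0.0691. Set 2 holds 1 array of each group, so its own spread is not measured, and the model borrows that of the other sets.

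**Figure D4:**
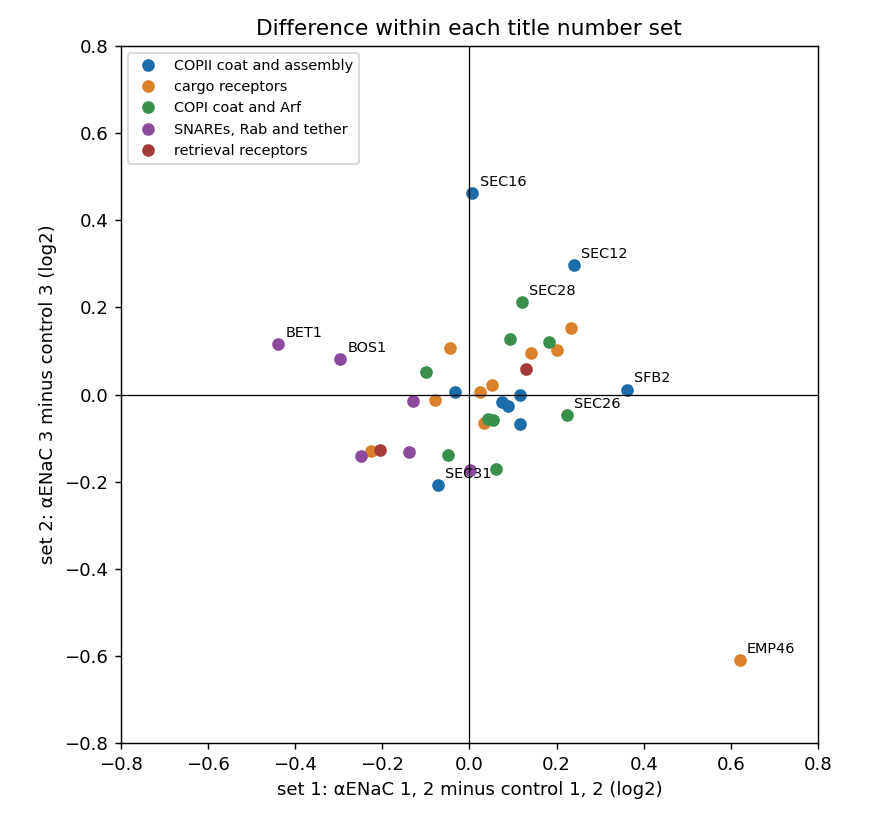
Log2 difference between αENaC and control yeast within set 1 (horizontal axis, 2 against 2 arrays) and within set 2 (vertical axis, 1 against 1 array) for each of the 36 genes, coloured by role group. EMP46 lies at 0.62 in set 1 and -0.61 in set 2, BET1 at -0.44 and 0.12, and SEC12 at 0.24 and 0.30.

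The controls of set 1 and set 3 differed from each other by more than αENaC from control with the title set as a block for 23 of the 36 genes, which is 63.9%, beside 72.4% of all probe sets. The median size of the gap between these control sets was 0.16, beside 0.28 for all probe sets. SEC12 had the largest, with a mean of -0.12 in the set 1 controls and -0.60 in the set 3 controls. SFB2 followed with 0.61 against 0.18. EMP47 lay the other way, with -0.04 against 0.34, as did ERD2 with 1.31 against 1.67.

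Among the 9 COPI and Arf genes, 5 were higher and 4 lower in the set 1 controls than in the set 3 controls, and the COPII genes had the same counts. No test was run on these gaps. COP1, SEC21, SEC26, SEC27 and RET2 were higher in the set 1 controls, by 0.12 to 0.36. SEC28 and RET3 were lower there, at -0.18 and -0.10, and so were ARF1 and ARF2, at -0.03 and -0.21. Set 1 holds 2 of the 3 αENaC arrays and 2 of the 7 controls. RET2, with a gap of 0.36, went from 0.20 over all arrays to 0.02 with the set as a block.

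**Figure D5:**
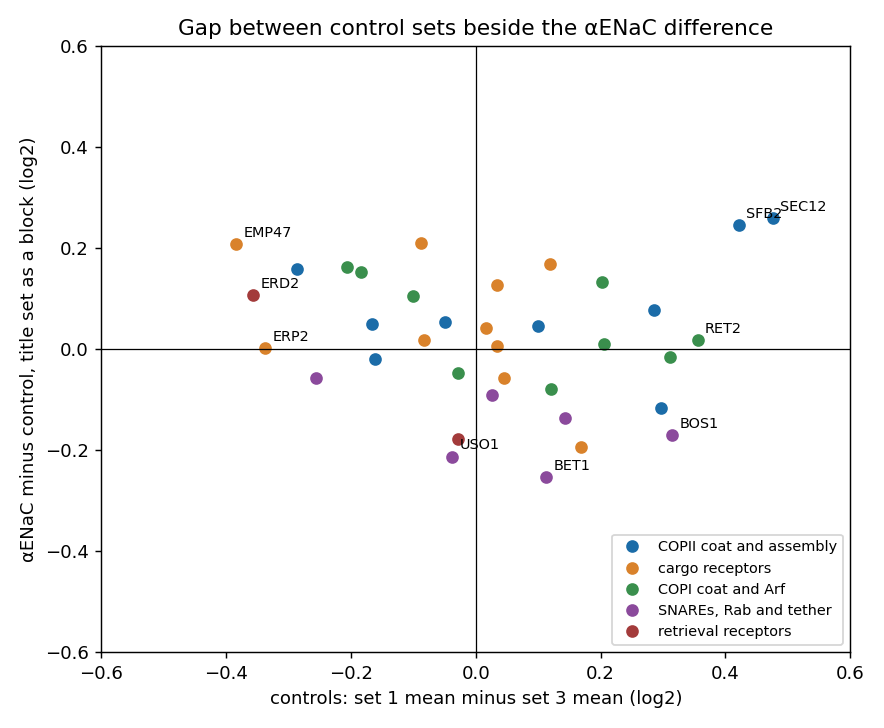
Mean of the set 1 controls minus the mean of the set 3 controls (horizontal axis) beside the αENaC difference with the title set as a fixed block (vertical axis), both on the log2 scale, for each of the 36 genes coloured by role group. SEC12 and SFB2 lie highest on both axes, and USO1 and BET1 lie at -0.21 and -0.25 on the vertical axis with gaps of -0.04 and 0.11.

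Other genes of transport between ER and Golgi, 64 in number and all measured, gave 1 call, beside 1.73% of all probe sets, and 39 of the 64 differences were positive with a median of 0.07. That direction turned with the title set as a block, to a median of -0.05, and 26 of the 64 were positive within set 1 and 23 within set 2. TRS65 encodes a subunit of the TRAPP II complex, which activates Rab proteins at the Golgi. It stood at 0.23, 0.18 and 0.13 in αENaC yeast and at -0.43 to -0.07 in the controls, with a median of -0.29. All αENaC arrays lay above all controls. TRS65 rose by 0.46 ± 0.09 (n = 3 and 7; limma adjusted p = 0.0293), and 0.32 in set 1 alone and 0.48 in set 2 alone. It passed under 14 of 24 alternatives (limma adjusted p from 0.00213 to 0.998), and the call was lost without αENaC 1 or 2, without control 5, 6 or 7, and when the replicate number was a block (limma adjusted p = 0.162). Median centring, the z scores, averaging near-identical arrays and leaving out quantile normalization each ended the call too.

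SLY1, which encodes the partner protein of the SNARE Sed5, was next. It stood at 0.81, 0.69 and 0.55 in αENaC yeast and at 0.04 to 0.48 in the controls, with a median of 0.27. The groups did not overlap, and the difference was 0.42 ± 0.10 (n = 3 and 7; limma adjusted p = 0.0735), and 0.30 in set 1 alone and 0.43 in set 2 alone. With the title set as a block it was called, at 0.35 (limma adjusted p = 0.0229; 24 alternatives gave 0.00525 to 0.998). GOT1, a membrane protein gene of early transport, stood at 1.14, 1.17 and 1.46 in αENaC yeast and at 1.47 to 1.61 in the controls, with a median of 1.54. The groups did not overlap, with αENaC 3 just below the lowest control. The difference was -0.28 ± 0.08 (n = 3 and 7; limma adjusted p = 0.101), and -0.43 in set 1 alone and -0.04 in set 2 alone.

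No other gene of that list passed the test over all arrays. Blocking on the title set gave calls for 7 of the 64, beside 14.2% of all probe sets: TRS65, SLY1 and COG5 higher, and PER1, ARF3, YIF1 and GOT1 lower. The median difference was 0.11 over 20 TRAPP and Golgi tether genes, 15 of them positive, and 0.13 over 8 regulators of Arf, 7 of them positive. It was 0.10 over 6 genes of the tether and SNAREs on the ER side. Under that block these 3 medians were 0.0037, -0.08 and -0.07, so the last 2 turned. Over all arrays the median was -0.04 over the 6 further p24 and ERV genes, -0.07 over the 6 YIP and GOT genes and -0.01 over the 7 Golgi SNARE and fusion genes, where the block gave 0.02. The 5 export chaperones of single cargo families ran from -0.33 for PHO86 to 0.47 for CHS7, neither of which passed the test (limma adjusted p = 0.279 and 0.198). The 6 genes of exit sites and COPII regulation had a median of 0.05.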

How the data were processed

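Hot phenol RNA and the 3' IVT Express kit, which gives biotin-labelled cRNA, were used per the labels' protocols. The authors deposited 1 score per probe set and array; the values have mean 0 and SD 1 on each array over 10715 probe sets, as z scores do. No source used here gives the background correction or the summary of probes. Each array's lowest score was taken as 0 and the rest put in units of the array mean, 0.03 was added, and log2 values were quantile normalized. Gene names came from the platform annotation, updated through the R64 gene table, and 5498 probe sets name 1 yeast gene.

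The 3 αENaC and 7 control arrays were compared in R 4.3.3 with limma 3.58.1, 2-sided, without covariates (8 residual degrees of freedom), and Benjamini-Hochberg adjustment ran over those 5498 at a threshold of 0.05. The steps were tested on simulated data. The interaction of group and title set used a model with a mean for each group in each set. The genes, lists and tests were chosen with earlier results of these data known. Full values are given for members called with or without the set as a block, the 2 with the smallest p in each role group, and both ends of each role group. From the list of other transport genes, those called and the 3 with the smallest p are named; further genes of that list were named after their values were seen. Groups share the replicate numbers 1 to 3. Same-numbered arrays deviated together from their group means (r = 0.41, 0.22 and 0.17 for the 3 numbers, above the limit of 0.1). They also share a title set, and this correlation was not computed between arrays of different numbers. Whether the numbers pair the samples beyond the shared set was therefore not tested. Precision is limited by how few arrays there are. The closing section gives the alternatives.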

Additional observations from a re-analysis of the deposited data

Results flagged for a closer look

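EMP46, the lectin-like cargo receptor gene, stands out because the effect of αENaC differed between the title number sets. The effect in set 1 minus the effect in set 2 was 1.23 on the log2 scale (limma adjusted p = 0.0290). Control 3, at -1.11, is the highest of all 10 arrays. GOT1, from the list of other transport genes, differed between the sets in the same test, by -0.389 (limma adjusted p = 0.0286). It is 1 of 7 called of the 64 genes of that list, beside 17.4% of all probe sets. Of the others called, COG1 (0.60), SEC18 (0.58), GRH1 (0.52), TRS31 (0.44) and GEA2 (-0.40) differed by more in size. BST1 (-0.35) differed by less. BET1 was flagged because control 4, at -0.854, lies apart from the other 6 controls, which were between -0.652 and -0.545. The gap is 0.654 of the whole range. Chance puts about 1 in 20 groups past this limit, and 7.08% of all probe sets passed it among the 7 controls. Of the 39 probe sets checked here BET1 alone passed it, so these show no excess of such controls. The causes were not tested.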

How the results depend on the processing

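No coat or transport member was called over all arrays, and the count called depended on how the title sets were handled. Against 95 probe sets and 0 members, limma called 783 and 3 (SEC12, USO1, RER1) with the set as a fixed block, 617 and 3 with it as a random block, 436 and 1 (SEC12) without set 3, and 3309 and 18 in set 1 alone. In set 1 the arrays of each group are near-identical, so spread there is small. It called 0 probe sets with the replicate block and 0 with near-identical arrays averaged (219 at an unadjusted p under 0.05), 46 without quantile normalization and 42 with median centring. On the z scores 93 probe sets and 1 member (ARF2) were called. Leaving out 1 array at a time gave 12 (without αENaC 1) to 237 probe sets (without αENaC 3 or control 3) and 0 to 1 members (SFB2, without αENaC 3). The count was 13 without αENaC 2, 44 without control 5 or 7 and 45 without control 6. The members' median difference of 0.02 was 0.0772 without quantile normalization, -0.1379 with median centring, 0.0347 with the random block and 0.0475 in set 1 alone. That median was 0.0375 with arrays averaged, 0.02 with the replicate block and -0.0048 to 0.0424 leaving out 1 array. On the z scores it was 0.1918 array SD, which is not a log2 value, beside 0.0308 array SD for all probe sets. ERD2 was called in set 1 alone at 0.13, turned from -0.02. For the effect of set 1 against set 2, the count of members called was 3 without quantile normalization, 3 on the z scores, and 0 to 7 leaving out 1 array (0 without αENaC 1 or 2 or control 1 or 2, 7 without control 4, 2 without control 6). In the main fit 17.4% of all probe sets passed that test, and their share under the other settings was not counted, so these member counts have no background beside them. Of 864 member values over the alternatives, called or not, 87 uncalled ones changed sign. The causes were not tested. Set 3 holds controls only and set 2 holds 1 array of each group, which limits precision.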
